A study of Mus musculus with 5 samples.

Results

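Tight junctions were followed here through 8 genes of the mouse ileal epithelium: the claudins Cldn2, Cldn3, Cldn4, Cldn7, Cldn15 and Cldn23, the scaffold Tjp1 and the membrane protein gene Ocln. They were taken by symbol from the deposited gene table, where all 8 of 8 were found among 27998 genes. Epithelium was taken from the ileum, the last stretch of the small intestine, of C57BL/6 mice that were 8 to 12 weeks old. Sham surgery gave 3 libraries, and small bowel resection, in which part of the small intestine is cut out, gave 2. All 5 were made as droplet single-cell RNA libraries (10x Genomics 3' chemistry), in which a unique molecular identifier (UMI) marks each captured transcript. The labels name no genotype or drug, no time after surgery and no number of mice per library. P-values for surgery within a cell class therefore measure the spread between libraries, which may in part be technical. Tests between cell classes or villus positions, and of how such differences change with surgery, held the library as a block. Their p-values measure how such differences vary from library to library, with the spread estimated over all classes or all bins together.

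A tight junction seals the space between neighbouring epithelial cells. Claudins span the membrane and set which ions pass: some close the gap, others form a pore through it. Occludin, the product of Ocln, lies in the same strands, and ZO-1, the product of Tjp1, ties the strands to the actin cytoskeleton. In the small intestine stem and Paneth cells lie in the crypts, and enterocytes mature as they move from the crypt mouth to the villus tip.

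In GRCm38 with GENCODE M21 gene models, Cldn2 (ENSMUSG00000047230) lies at chrX:139800828-139811386 and Cldn15 (ENSMUSG00000001739) at chr5:136966616-136975858, both on the plus strand. Cldn3 (ENSMUSG00000070473, chr5:134986214-134987472, plus) and Cldn4 (ENSMUSG00000047501, chr5:134945119-134946934, minus) are single-exon neighbours 39279 bases apart with 0 coding genes between them. Cldn7 (ENSMUSG00000018569) lies at chr11:69964779-69967885 on the plus strand, and the single-exon Cldn23 (ENSMUSG00000055976) at chr8:35824712-35826559 on the minus strand. Tjp1 (ENSMUSG00000030516, 28 exons) spans chr7:65296165-65527781 and Ocln (ENSMUSG00000021638, 9 exons) chr13:100496507-100552718, both on the minus strand. An antisense gene, Wbscr25, overlaps Cldn3 by 40 bases, and use of the strand in counting is not given in the sources used here.

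The 2 promoters below belong to the 2 genes that were higher in a crypt class than in enterocytes in the results that follow, Cldn2 and Cldn4. Each runs 5′ to 3′ on the gene's strand, from 250 bases before the RefSeq start site to 50 after it (GRCm38.p6; Cldn2 chrX:139800558-139800857, plus; Cldn4 chr5:134946885-134947184, minus). Capitals mark exact matches, on either strand, to the CDX letters TTTATG in Cldn2, and in Cldn4 to the AP-1 letters TGANTCA, the GC box GGGCGG and the E-box CACCTG.
Cldn2: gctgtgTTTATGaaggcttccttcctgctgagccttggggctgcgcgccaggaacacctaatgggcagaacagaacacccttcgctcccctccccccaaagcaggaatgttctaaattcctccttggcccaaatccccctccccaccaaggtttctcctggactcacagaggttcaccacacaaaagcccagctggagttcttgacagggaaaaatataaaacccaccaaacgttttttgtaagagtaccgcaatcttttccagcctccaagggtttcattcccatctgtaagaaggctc
Cldn4: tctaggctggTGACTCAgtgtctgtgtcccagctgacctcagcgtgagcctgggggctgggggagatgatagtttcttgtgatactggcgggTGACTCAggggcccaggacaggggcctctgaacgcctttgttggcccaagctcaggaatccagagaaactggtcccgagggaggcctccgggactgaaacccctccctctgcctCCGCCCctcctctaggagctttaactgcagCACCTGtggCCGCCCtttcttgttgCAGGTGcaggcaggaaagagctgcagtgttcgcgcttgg
The Cldn2 window holds 1 CDX match, and none of the other motifs searched. The Cldn4 window holds 6 matches: 2 AP-1, 2 GC box and 2 E-box. Among 32851 promoters of the same length (300 bases), the CDX letters occur in 11.9%, the AP-1 letters in 7.81%, the GC box in 35.7% and the E-box in 20.2%. The GATA letters AGATAA, also searched, occur in 11.2% of promoters and in 0 of the 7 member genes with an entry. Among those 7 genes the CDX letters were found in 1, the AP-1 letters in 2, the E-box in 4 and the GC box in 6, with no entry matched for Cldn23. A gene counted if any of its entries matched, and Cldn7 and Ocln have more than 1 entry, whereas the percentages are per promoter. A match describes the letters in this window only.

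Cells fell into 20 clusters, named from marker genes after the junction genes had been left out of the clustering. Progenitor-like cells (stem-like and cycling-like, 67 to 593 per library) and Paneth-like cells (118 to 259) stand for the crypt, immature enterocyte-like cells (243 to 904) for cells between the crypt and the villus, and enterocyte-like cells (694 to 3827) for the villus. The summed immature enterocyte markers were higher in enterocyte-like than in immature cells in 4 of 5 libraries (56180 to 104618 against 41111 to 84647 CPM of UMIs over the 5), so these sums do not set the immature class apart. A cluster with 84.6% of sham 3's enterocyte-like cells scored 0.652 as enterocyte and 0.659 as immature. It was named enterocyte because an immature name needed a lead of 0.1, a rule set after seeing the data. With clusters named by the highest marker score, sham 3 had 214 enterocyte-like cells in place of 1393. With coarser clusters (Leiden resolution 0.5), sham 1 had 36 in place of 694. Goblet-like cells numbered 31 to 198. Libraries held 1402 to 7233 barcodes and 11749028 to 41281731 UMIs, and pairs of libraries shared 6 to 47 barcodes. By the clusters their cells occupied, sham 1 and resection 1 stood apart from the other 3 libraries: libraries of the same set shared 42.7 to 53.8% of their cluster composition, libraries of different sets 5.23 to 8.09%. A cluster of 1563 cells had 2 immature enterocyte markers, Reg3b and Reg3g, and 0 enterocyte markers among its 10 leading genes, scored near equal for both, and was left unnamed. It holds 0.0779, 17.8 and 7.40% of the kept cells of sham 1, 2 and 3 and 0.109 and 10.1% of those of resection 1 and 2. Each class keeps a library as the replicate: counts were summed over its cells and scaled by TMM, and the unit below is scaled CPM, counts relative to the scaled total. In Paneth-like sums the scaled total is 0.238 to 0.364 of the UMI total, against 1.02 to 1.35 in enterocyte-like sums, so Paneth-like levels depend on the scaling. Scaling by UMI totals alone ("per UMI", a choice made after seeing the data) moved the median of all genes, which was near 0, to -2.10 on the log2 scale for Paneth-like, 0.55 for progenitor-like, 0.37 for immature and 0.23 for goblet-like cells against enterocyte-like cells. Where that scaling changes a call of the 8 members, the value is given. Calls of the other junction genes were taken on the TMM scale only. T cell-like droplets held most members at levels near those of the epithelial classes other than Paneth-like cells (Cldn7 at 1129 to 1497 CPM of UMIs in the 5 libraries, Cldn2 at 18.2 to 56.5). All 8 of 8 enterocyte markers were also found in them in every library, summing to 8335 to 42599 CPM of UMIs. Paneth-like cells held 1382 to 10774 of these markers and Cldn7 at 166 to 325. These droplets are thus no measure of free RNA by themselves, and the source of their epithelial RNA was not tested. The part of free RNA in the class levels was not tested.

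Cldn2, which forms a pore for cations and water, was higher in progenitor-like than in enterocyte-like cells. Progenitor-like cells held 70, 28.9 and 50.5 CPM in sham 1 to 3, and 42.6 and 34.8 in resection 1 and 2. Enterocyte-like cells held 29.3, 11.3 and 51.5 CPM in the sham and 9.37 and 15.1 in the resection libraries. The progenitor-like level was the higher in 4 of 5 libraries, with sham 3 at nearly equal values, and the fitted difference was 1.09 ± 0.18 on the log2 scale (SE; edgeR adjusted p = 8.36e-07), or 2.12-fold. Immature cells also stood above enterocyte-like cells, by 0.78 ± 0.17 (adjusted p = 0.000107). In the order of class means, Paneth-like (48.1 ± 21 CPM, SD, n = 5), progenitor-like (45.4 ± 16), immature (36 ± 12.4), goblet-like (25.6 ± 11.8) and enterocyte-like cells (23.3 ± 17.6), the first pair was not separated, since Paneth-like cells were above progenitor-like cells in 2 of 5 libraries. Goblet-like and enterocyte-like cells did not differ past the threshold (0.21 ± 0.28, adjusted p = 0.581; without sham 3, 0.63 with adjusted p = 0.0495). The Paneth-like excess over enterocyte-like cells (1.17 ± 0.24, adjusted p = 6.90e-05) rests on the scaling: per UMI the same Cldn2 counts gave -0.93 (adjusted p = 0.000113), with all 5 libraries lower. The progenitor-like excess was 1.63 on that scale, with 5 of 5 libraries higher.

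Cldn15, another pore-forming claudin, which carries the sodium that returns to the lumen for nutrient uptake, ran the other way. Enterocyte-like cells held 276, 272 and 193 CPM in the 3 sham and 349 and 297 in the 2 resection libraries. Progenitor-like cells held 205, 157 and 138 CPM in the sham and 196 and 176 in the resection libraries, lower than the enterocyte-like cells of the same library in 5 of 5. The difference was -0.67 ± 0.10 (edgeR adjusted p = 6.49e-08). Paneth-like cells were also lower (-0.64 ± 0.11, adjusted p = 2.68e-06), as were immature (-0.37 ± 0.09, adjusted p = 0.000657) and goblet-like cells (-0.29 ± 0.10, adjusted p = 0.0199). Paneth-like and progenitor-like means (179 ± 14.2 and 175 ± 27.6 CPM, SD, n = 5) were not separated. Per UMI, the Cldn15 difference of progenitor-like cells was -0.14 (adjusted p = 0.381), of immature cells -0.02 (adjusted p = 0.904) and of goblet-like cells -0.07 (adjusted p = 0.755), none past the threshold, whereas the Paneth-like one was larger (-2.68). The goblet-like call was also lost without sham 2 (adjusted p = 0.0639), resection 1 (0.156) or resection 2 (0.0503) and with coarser clusters (0.0669).

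Cldn4, a barrier-forming claudin found in many epithelia, had its highest class mean in Paneth-like and its lowest in progenitor-like cells. The ratio of those means was 53.6 on the TMM scale, the widest of the 8 genes, and 8.30 per UMI, where Cldn23 (14.9) and Tjp1 (13.2) spanned more. Paneth-like cells held 549, 306 and 664 CPM in sham 1 to 3, and 243 and 72.9 in resection 1 and 2. Enterocyte-like cells held 97, 60.9 and 64 CPM in the sham and 8.84 and 24.1 in the resection libraries. Progenitor-like cells held 13.3, 4.31 and 8.18 CPM in the sham and 5.62 and 2.83 in the resection libraries, from 10 to 50 UMIs each. Every library had the order Paneth-like above enterocyte-like above progenitor-like. Against enterocyte-like cells, the Paneth-like difference was 2.91 ± 0.22 (7.52-fold; edgeR adjusted p = 3.26e-14) and the progenitor-like one -2.80 ± 0.29 (6.97-fold lower; adjusted p = 4.75e-11). Immature cells were lower as well (-1.70 ± 0.23, adjusted p = 3.89e-08), and goblet-like cells did not differ past the threshold (-0.13 ± 0.29, adjusted p = 0.763). Per UMI, Cldn4 was still above the enterocyte-like level in the Paneth-like cells of all 5 libraries, by 0.82 (adjusted p = 0.000127). Of sham 1's enterocyte-like cells, 73.8% lie in a cluster of their own, which has Cldn4 among its 10 leading genes, at 156 CPM of UMIs.

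Cldn23, a claudin of differentiated epithelium, was higher in enterocyte-like cells than in each of the 4 other classes. Enterocyte-like cells held 94.1, 134 and 133 CPM in sham 1 to 3, and 48.5 and 56.1 in resection 1 and 2. Progenitor-like cells held 12.1, 17.2 and 9.81 CPM in the sham and 14.7 and 11 in the resection libraries, so the groups of classes do not overlap. The progenitor-like difference was -2.76 ± 0.18 (6.75-fold lower; edgeR adjusted p = 7.88e-17), the Paneth-like one -1.72 ± 0.22 (adjusted p = 1.53e-08), the goblet-like one -1.28 ± 0.20 (adjusted p = 2.82e-06) and the immature one -1.13 ± 0.14 (adjusted p = 1.09e-08). Immature and goblet-like means (39.6 ± 9.11 and 36.3 ± 6.78 CPM, SD, n = 5) lay within each other's spread. All 4 differences kept their sign and call per UMI.

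**Figure D1:**
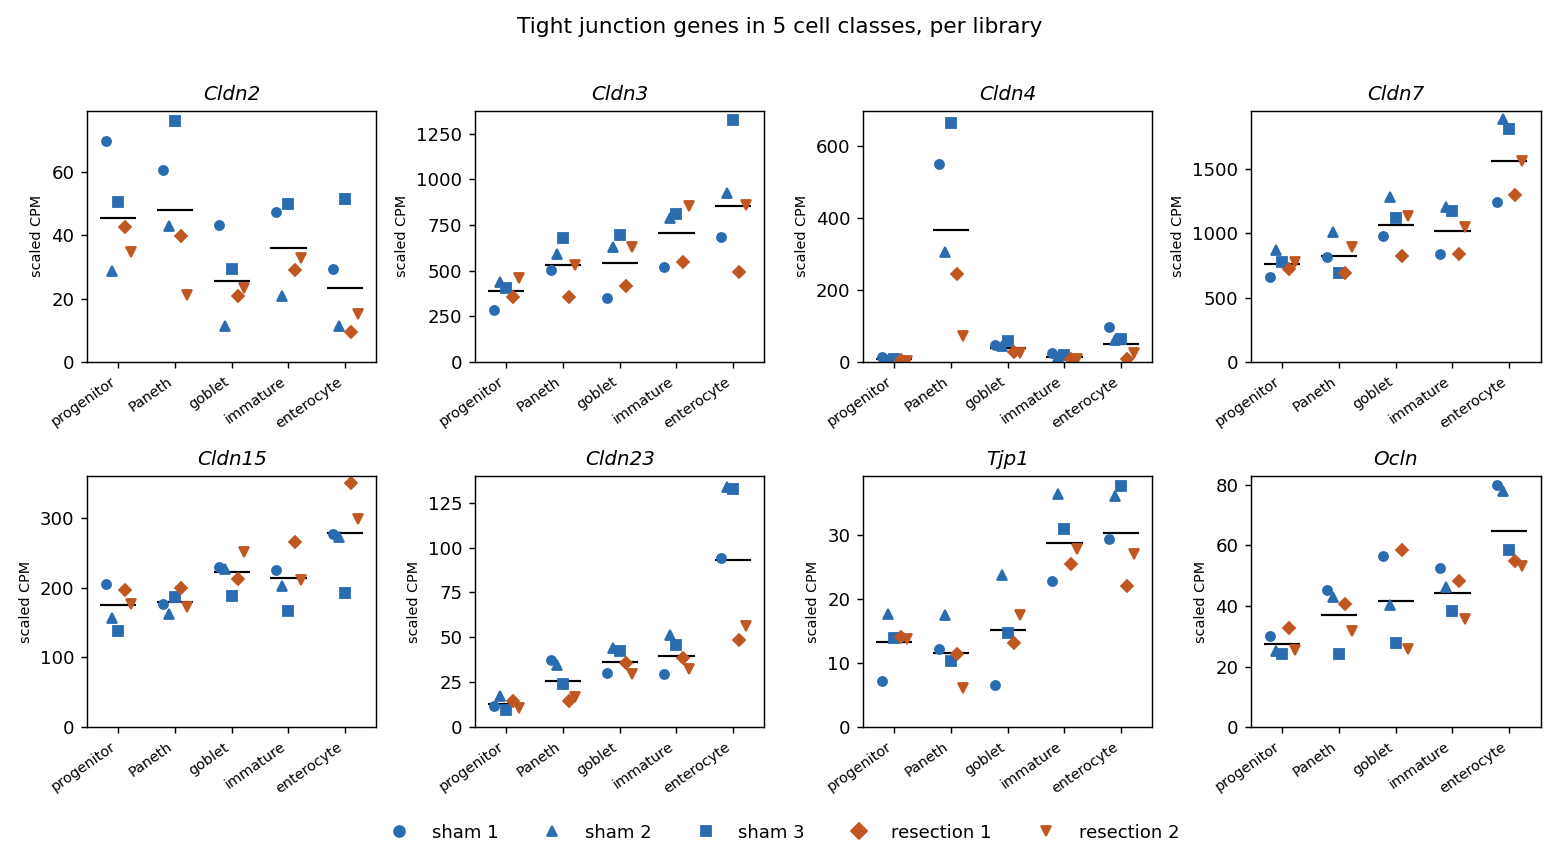
Scaled CPM of each of the 8 genes (vertical axis from 0, its own range per panel) in progenitor-like, Paneth-like, goblet-like, immature enterocyte-like and enterocyte-like cells. Each point is 1 library (blue sham, orange resection) and each line the mean of 5 libraries. Cldn4 stands out in Paneth-like cells, Cldn23 in enterocyte-like cells, and Cldn2 has its lowest mean in enterocyte-like cells.

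Cldn3, a sealing claudin, and Cldn7, which lies mainly along the lateral membrane and binds Epcam, were both lower in progenitor-like than in enterocyte-like cells. Per UMI, Paneth-like cells were lowest, with Cldn3 at 84.1 to 193 and Cldn7 at 166 to 325 CPM, against 527 to 688 and 1164 to 1305 in progenitor-like cells. On the TMM scale Cldn7 was lower in progenitor-like than in Paneth-like cells in 3 of 5 libraries. Cldn3 in enterocyte-like cells was 682, 925 and 1324 CPM in the sham and 490 and 861 in the resection libraries, against 283, 435 and 405 and against 354 and 458 in progenitor-like cells. The difference was -1.09 ± 0.12 (edgeR adjusted p = 2.75e-10), with all 5 libraries lower, or 4 of 5 per UMI. Cldn3 was lower by 0.65 ± 0.12 in Paneth-like cells (log2 scale; adjusted p = 3.16e-05) and by 0.62 ± 0.12 in goblet-like cells (adjusted p = 9.80e-05; per UMI -0.40, adjusted p = 0.0512). Immature cells did not differ past the threshold for Cldn3 (-0.25 ± 0.12, adjusted p = 0.0623; without resection 1, -0.35 with adjusted p = 0.0141, with doublets kept -0.28 with 0.0317, and with no filter -0.32 with 0.0195). Cldn7 was 1241, 1894 and 1815 CPM in the sham libraries and 1296 and 1563 in resection enterocyte-like cells, against 663, 872 and 780 and against 723 and 775 in progenitor-like cells. The Cldn7 difference was -1.02 ± 0.11 (adjusted p = 4.26e-11), and Cldn7 was lower in 5 of 5 libraries in each of the 4 other classes, by 0.90 ± 0.11 in Paneth-like (adjusted p = 5.16e-09), 0.61 ± 0.10 in immature (adjusted p = 3.10e-06) and 0.54 ± 0.11 in goblet-like cells (adjusted p = 7.99e-05). Per UMI the immature difference of Cldn7 was -0.26 (adjusted p = 0.131) and the goblet-like one -0.31 (adjusted p = 0.127).

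Ocln and Tjp1, the strand protein and the scaffold, had the same direction from crypt to villus. Enterocyte-like cells held 80 (sham 1), 77.8 (sham 2), 58.6 (sham 3), 54.8 (resection 1) and 53.1 (resection 2) CPM of Ocln. Progenitor-like cells held 30.2, 25, 24, 32.7 and 25.4 CPM in the same order. Its class ranges do not overlap, and the difference was -1.19 ± 0.11 (edgeR adjusted p = 2.63e-12). Ocln was also lower in Paneth-like (-0.77 ± 0.14, adjusted p = 1.68e-05), goblet-like (-0.73 ± 0.14, adjusted p = 7.58e-05) and immature cells (-0.55 ± 0.10, adjusted p = 8.27e-06; per UMI -0.20, adjusted p = 0.147). In that order Tjp1 was 29.3, 36, 37.5, 21.9 and 26.9 CPM in enterocyte-like cells and 7.24, 17.7, 13.9, 14.1 and 13.8 CPM in progenitor-like cells, lower in 5 of 5 libraries. The Tjp1 difference was -1.09 ± 0.12 (adjusted p = 4.15e-10), with lower values also in Paneth-like (-1.29 ± 0.20, adjusted p = 1.07e-06, from 3 to 15 UMIs per library) and goblet-like cells (-0.86 ± 0.18, adjusted p = 0.000202). Immature and enterocyte-like cells did not differ past the threshold in Tjp1 (-0.06 ± 0.10, adjusted p = 0.698; per UMI 0.29, adjusted p = 0.0268).

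Of the 8 members, 8 passed between progenitor-like and enterocyte-like cells, 1 higher and 7 lower, where 80.6% of 10411 genes passed (4236 higher and 4156 lower; per UMI 5711 and 2533). Against Paneth-like cells 8 of 8 passed where 51.1% of genes did (2529 higher and 2791 lower; per UMI 443 and 8931), against goblet-like cells 6 of 8 where 40.6% did (2056 and 2168; per UMI 2711 and 968), and against immature cells 6 of 8 where 68.3% did (3613 and 3500; per UMI 5209 and 2015). The share of members called was near that of all genes for immature cells and above it for Paneth-like and goblet-like cells, and these shares were not tested. The median member difference from enterocyte-like cells was -1.09 in progenitor-like, -0.71 in Paneth-like, -0.58 in goblet-like and -0.46 in immature cells, and the median of all genes was 0.01, -0.02, 0.00 and 0.02. The size of the progenitor-like differences depended on the processing. Under the other choices tried, the smallest were -0.56 for Cldn3 and for Tjp1, -0.49 for Cldn7 and -0.66 for Ocln. Only Cldn2 was higher in progenitor-like and immature than in enterocyte-like cells among the 8, on both scalings for progenitor-like cells and, for immature cells, beside a higher Tjp1 per UMI.

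Within the enterocyte-like class, each library's cells were ranked by a score of villus tip genes (such as Ada and Nt5e) minus villus base genes (such as Reg3b and Gsdmc4) and cut into 4 bins of equal cell number. Bins are ranges of a score and no cell types, and their CPM was scaled apart from that of the classes. Cldn2 fell from the lowest to the highest bin. Its lowest bin held 45.5, 21.8 and 88.7 CPM in sham 1 to 3, and 23.5 and 32.7 in resection 1 and 2. Its highest bin held 26.2, 4.86 and 27.3 CPM in the sham and 1.49 and 3.90 in the resection libraries, from 5 to 53 UMIs. All 5 libraries had less at the upper end, and the difference was -2.13 ± 0.23 (4.37-fold lower; edgeR adjusted p = 3.35e-08). Cldn7 rose instead, by 0.43 ± 0.06 (adjusted p = 1.41e-06), from 1319, 1933 and 1947 to 1621, 2570 and 2398 CPM in the sham and from 1195 and 1556 to 1850 and 2212 in the resection libraries. Cldn3 was lower in the upper bin in 5 of 5 libraries (-0.42 ± 0.08, adjusted p = 9.65e-05).

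Cldn23 (-0.56 ± 0.15, edgeR adjusted p = 0.00401) and Tjp1 (-0.31 ± 0.10, adjusted p = 0.0136) also passed as lower in the upper bin, less firmly. The Cldn23 call was lost without resection 2 (-0.29, adjusted p = 0.0722), and the Tjp1 call without resection 1 (-0.29, adjusted p = 0.0535) or resection 2 (-0.26, adjusted p = 0.0927) or with doublets kept (-0.26, adjusted p = 0.0508). With a score from tip genes alone, the Cldn23 difference was -0.06 (adjusted p = 0.713) and that of Tjp1 0.01 (adjusted p = 0.950). Cldn4 (-0.34 ± 0.20, adjusted p = 0.169) depended on the score: it was higher at the upper end with tip genes alone (0.43, adjusted p = 0.00323) and lower with base genes alone (-0.93, adjusted p = 0.00443) without sham 1 (-0.53, adjusted p = 0.0440), with no filter on low counts (-0.35, adjusted p = 0.00792) or with coarser clusters (-0.66, adjusted p = 0.00383). Cldn15 (-0.07 ± 0.07, adjusted p = 0.453) and Ocln (-0.06 ± 0.09, adjusted p = 0.608) did not pass. In all, 5 of 8 members passed, 1 higher and 4 lower, where 47.8% of 8632 genes passed. Fewer members passed without resection 2, a fit whose share of all genes is not given here.

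**Figure D2:**
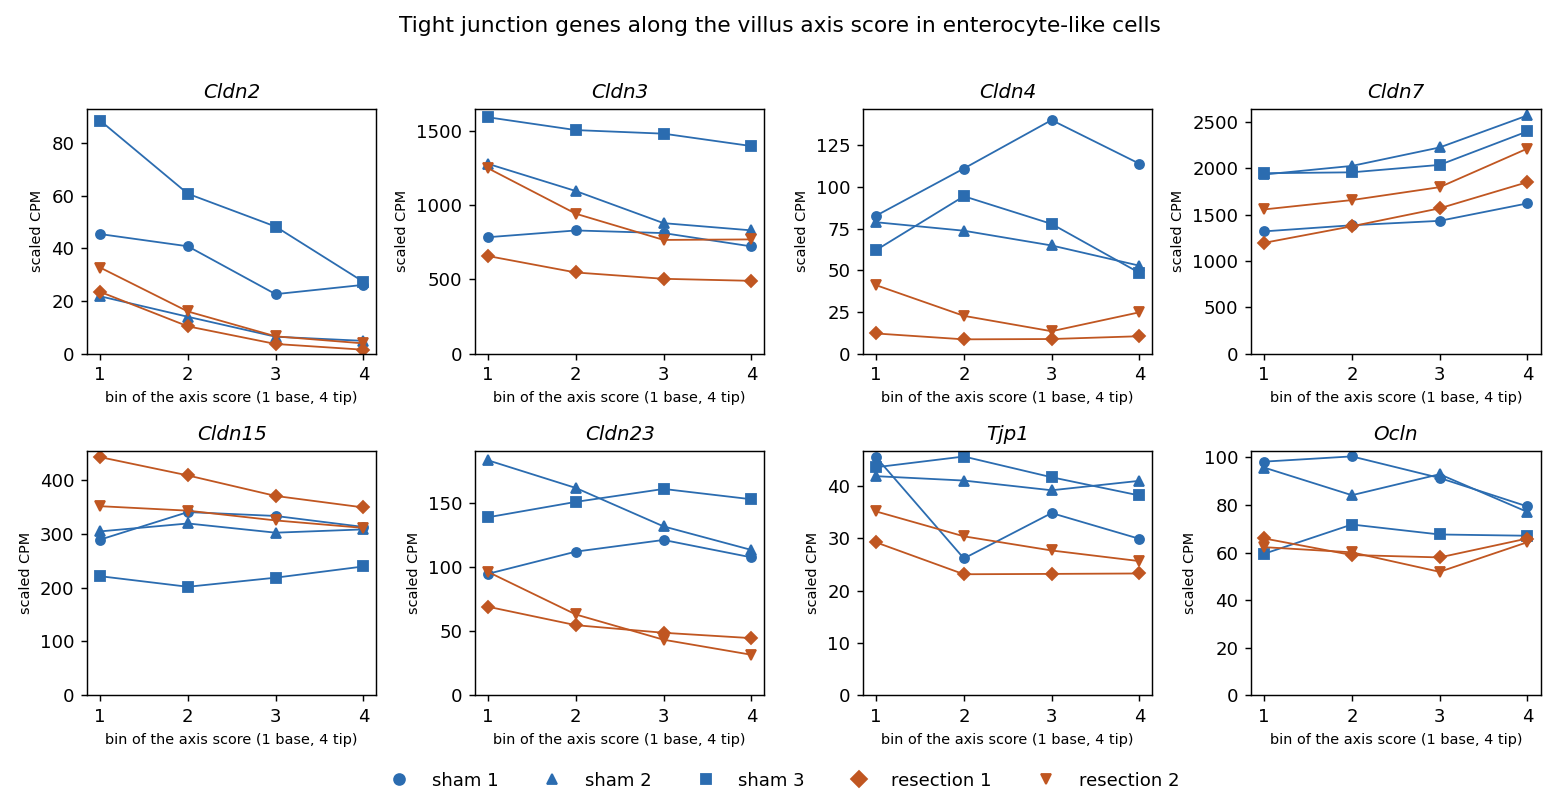
Scaled CPM of each gene (vertical axis from 0, its own range per panel) in the 4 bins of the villus axis score, 1 nearest the base genes and 4 nearest the tip genes. Each line is 1 library (blue sham, orange resection). Cldn2 falls in all 5 libraries and Cldn7 rises in all 5, and Cldn23 falls in both resection libraries while sham 1 and sham 3 are slightly higher in bin 4 than in bin 1.

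Resection and sham were tested within each class but goblet-like cells, with libraries as replicates. In enterocyte-like cells Cldn4 was at 8.84 and 24.1 CPM in resection 1 and 2, against 97, 60.9 and 64 in sham 1, 2 and 3, with no overlap. The fitted Cldn4 difference was -2.18 ± 0.48 (edgeR adjusted p = 0.469, or 6.98e-05 with no filter on low counts; DESeq2 -2.20, adjusted p = 0.00133). Cldn23 did not overlap either, with 48.5 and 56.1 CPM against 94.1, 134 and 133 and a difference of -1.22 ± 0.29 (edgeR adjusted p = 0.553; DESeq2 -1.23, adjusted p = 0.0135). Tjp1 (-0.51 ± 0.25) and Ocln (-0.44 ± 0.26) had both resection libraries below every sham library, and Cldn15 (0.37 ± 0.30) had both above, each with an edgeR adjusted p of 0.999. Cldn2 (-1.34 ± 0.58, adjusted p = 0.985, or 0.0481 with no filter on low counts), Cldn3 (-0.55 ± 0.41, adjusted p = 0.999) and Cldn7 (-0.22 ± 0.34, adjusted p = 0.999) overlapped between the groups. So 4 of 8 members lay wholly lower after resection where 6.62% of 7329 genes did, and 1 wholly higher where 11% did. Per UMI, 5 members lay wholly lower (Cldn3, Cldn4, Cldn7, Cldn23 and Tjp1) and 0 wholly higher. The shares of all genes were computed on the TMM scale only, so these per-UMI counts have no share to stand beside.

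By edgeR's adjusted p, 0 of 8 members passed in enterocyte-like cells, as did 0% of 10287 genes. At an unadjusted p under 0.05 edgeR counted 522 genes there, and DESeq2 called 58 after adjustment, 2 of them members (Cldn4 and Cldn23). With 3 against 2 libraries a missed threshold does not show equal levels. Within the set of sham 1 and resection 1, the Cldn4 difference in enterocyte-like cells was -3.32, and resection 2 lay 1.34 below the mean of sham 2 and 3 (a difference of -1.34, log2 scale). The same values for Cldn23 were -0.94 and -1.23. Other measures moved with the groups in these cells. The summed level of 8 enterocyte markers (all 8 detected) was 14495 to 35222 CPM of UMIs in the sham and 36681 to 63920 in the resection libraries. The summed CPM of 6 stress and growth factor response genes (Areg, Ereg, Atf3, Dusp5, Epha2 and Edn1, chosen after their values were seen) ran from 1639 to 1931 over the sham libraries, and resection 1 and 2 lay lower, at 1001 and 1213. Of these genes, Areg, Ereg and Edn1 were lower in both resection libraries than in every sham library, and Atf3, Dusp5 and Epha2 overlapped. Areg was at 754, 734 and 874 CPM in sham 1 to 3, and at 277 and 536 in resection 1 and 2. The part of the enterocyte markers and of these 6 genes in the Cldn4 and Cldn23 differences was not tested. Paneth markers, which mark the class with the highest Cldn4, summed to 1282 to 6038 in the sham and 2265 to 2473 in the resection enterocyte-like cells and overlapped. Libraries also drew their enterocyte-like cells from largely different clusters, for example 66.6% of those of resection 2 from 1 cluster that holds 0.432, 11.5 and 3.45% of those of sham 1, 2 and 3.

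Cldn4 was lower on average after resection in the other classes too, without passing edgeR's test in the design without a block. In Paneth-like cells the resection libraries (243 and 72.9 CPM) lay below all sham libraries (306 to 664), a difference of -1.63 ± 0.56 (adjusted p = 1). Immature cells held 23.9, 12.4 and 19.3 CPM of Cldn4 in the sham and 8.00 and 7.33 in the resection libraries (-1.25 ± 0.31, adjusted p = 1). Progenitor-like cells overlapped (-0.94 ± 0.47, adjusted p = 1). Cldn23 in Paneth-like cells was 37.2, 34.9 and 24.2 CPM in the sham and 14.6 and 16.7 in the resection libraries, with no overlap (-1.08 ± 0.40, adjusted p = 1). Cldn2 was also wholly lower in resection Paneth-like cells, at 39.7 and 21.3 CPM against 60.7, 43 and 76.1 (-0.88 ± 0.42, adjusted p = 1). These Paneth-like values come from few UMIs. For Cldn23 there were 46, 26 and 7 in sham 1 to 3, and 14 and 11 in resection 1 and 2. For Cldn2 there were 14 to 75 per library. In progenitor-like cells Cldn23 was close in both groups, at 12.1, 17.2 and 9.81 against 14.7 and 11 CPM (-0.04 ± 0.33).

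Counts of members wholly lower after resection were 0 of 8 in progenitor-like cells (4.01% of genes), 3 of 8 in Paneth-like cells (7.58%), 1 of 8 in goblet-like cells (8.9%) and 1 of 8 in immature cells (4.47%). The goblet-like member was Cldn4, at 46.5, 43 and 57.3 CPM in the sham and 26.3 and 25 in the resection libraries, from 14 to 49 UMIs. edgeR passed 0% of genes and 0 members in immature cells (146 genes at an unadjusted p under 0.05; DESeq2 called 1 gene), in progenitor-like cells (155; DESeq2 3) and in Paneth-like cells (129; DESeq2 6). DESeq2 called 0 members in these 3 classes. Tjp1 was too sparse to be tested between groups in Paneth-like cells.

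**Figure D3:**
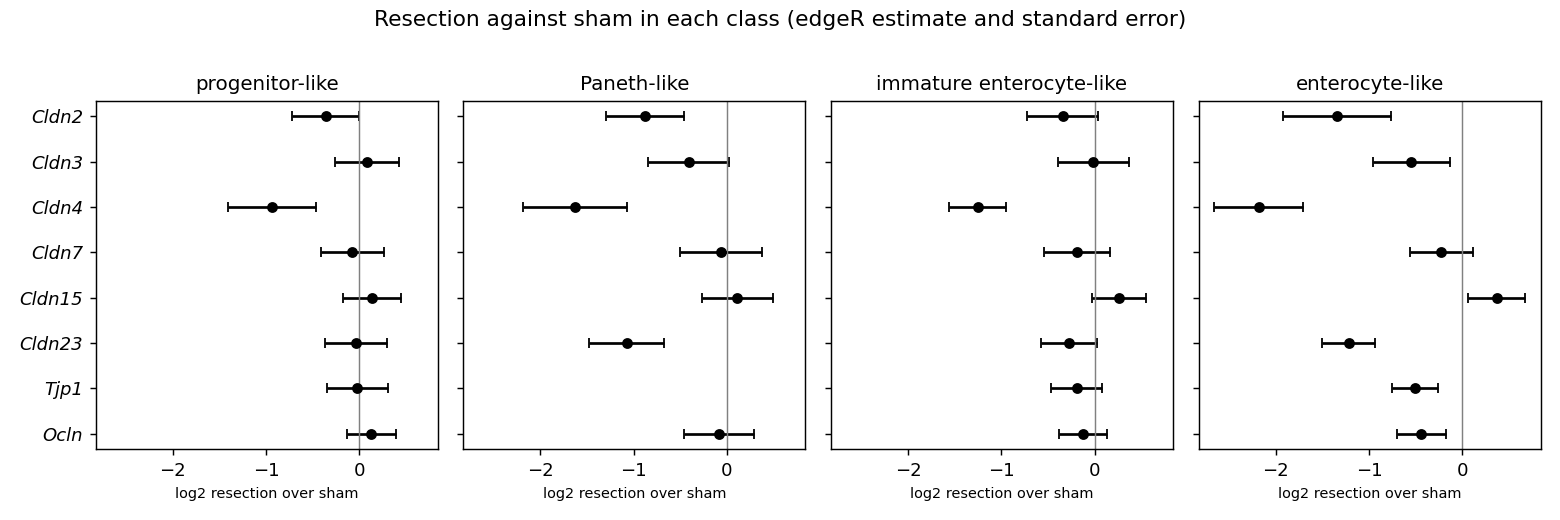
Log2 ratio of resection over sham for each gene (points, edgeR estimate; bars, standard error) in 4 classes, from 3 sham and 2 resection libraries. Cldn4 lies below 0 in all 4 classes and the Cldn23 points are farthest below 0 in Paneth-like and enterocyte-like cells. No gene passed an adjusted p of 0.05 by edgeR, and Tjp1 is not shown for Paneth-like cells.

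A separate test asked whether the difference between progenitor-like and enterocyte-like cells was itself different after resection. Cldn23 passed it: the log2 difference of progenitor-like from enterocyte-like cells was -2.86 in sham 1, -2.88 in sham 2 and -3.63 in sham 3, against -1.65 in resection 1 and -2.25 in resection 2. The groups do not overlap, and the crypt to villus difference of Cldn23 was smaller after resection by 1.30 ± 0.27 (edgeR adjusted p = 0.0160). The call was lost without sham 3 (0.94, adjusted p = 0.699) or resection 1 (1.01, adjusted p = 0.765) and per UMI (1.27, adjusted p = 0.125), and with coarser clusters or clusters named by the highest marker score (adjusted p = 0.395 and 0.762). The other 7 members did not pass, with Cldn2 at 1 ± 0.30 (adjusted p = 0.173), Cldn3 at 0.67 ± 0.21 (adjusted p = 0.225) and Cldn4 at 1.23 ± 0.63 (adjusted p = 0.617). Cldn2 passed with no filter on low counts (1, adjusted p = 0.00568), and without sham 2 (1.25, adjusted p = 0.0395) or resection 2 (1.51, adjusted p = 0.0315), Cldn4 without resection 2 (2.60, adjusted p = 0.00303) and Cldn3 by DESeq2 (0.65, adjusted p = 0.0405). The 1 call among 8 members stands where 0.307% of 10411 genes passed.

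Along the villus axis 2 of 8 members passed the test of a difference between the groups, where 3.77% of 8632 genes did. For Cldn2 the log2 difference of the upper from the lower bin was -0.78 in sham 1, -1.96 in sham 2 and -1.66 in sham 3, against -3.30 in resection 1 and -2.78 in resection 2, a steeper fall after resection by 1.83 on the log2 scale (-1.83 ± 0.37, edgeR adjusted p = 0.00241). For Cldn23 the upper bin differed by 0.18, -0.69 and 0.14 in the sham and by -0.62 and -1.58 in the resection libraries, so the groups overlap, and the test gave -0.97 ± 0.23 (adjusted p = 0.0107). The Cldn2 call was lost with a score from tip genes alone (-0.38, adjusted p = 0.786) and with coarser clusters (-1.37, adjusted p = 0.115). The Cldn23 call was lost without sham 1 (-0.88, adjusted p = 0.0766), sham 3 (-0.76, adjusted p = 0.145) or resection 2 (-0.45, adjusted p = 0.475) with base genes alone (-0.79, adjusted p = 0.106) and with clusters named by the highest marker score (-0.73, adjusted p = 0.127), and Cldn3 passed without sham 2 (-0.42, adjusted p = 0.0492). The score itself spans unlike ranges: summed base genes fell from 69896 to 40740 CPM between bin 1 and bin 4 of sham 1 and from 106785 to 26424 in resection 2. Whether the span accounts for part of these differences was not tested.

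Other junction genes were taken from lists of the tight junction and of the adherens junction and desmosome, the junctions that hold neighbouring cells together. Their values are on the TMM scale, and how the counts move per UMI was not tested. Of 28 other tight junction genes tested between progenitor-like and enterocyte-like cells, 20 were lower, 5 higher and 3 did not pass, with a median difference of -1.09, where 40.7% of all genes were higher and 39.9% lower. The lower ones include Pard6b (-2.69 ± 0.13, edgeR adjusted p = 2.83e-20) and Prkcz (-1.91 ± 0.11, adjusted p = 1.05e-18), parts of the complex that sets apical polarity, and the adhesion receptor Cxadr (-2.05 ± 0.11, adjusted p = 3.57e-19). The higher ones include Ybx3, which encodes a ZO-1 binding factor (2.02 ± 0.11, adjusted p = 1.43e-19), and Amot (2.04 ± 0.15, adjusted p = 5.10e-15). Of 20 adherens junction and desmosome genes, 16 were lower, 1 higher (Pvrl1, 1.57 ± 0.20, adjusted p = 4.45e-09) and 3 did not pass, with the cadherin Cdh17 (-1.66 ± 0.11), the catenin Ctnna1 (-1.25 ± 0.10) and plakoglobin, Jup (-1.23 ± 0.10), among the lower. Of 17 other claudins in the table, 2 had enough counts, and Cldn8, a sodium-barrier claudin, was higher in progenitor-like cells (4.59 ± 0.37, adjusted p = 4.17e-14; 6.86 ± 5.66 against 0.28 ± 0.37 CPM, SD, n = 5).

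Against Paneth-like cells, 19 of the 28 other tight junction genes were lower than in enterocyte-like cells and 1, Ybx3, higher, and of the adherens list 14 of 20 were lower and 1 higher (all genes, 24.3% higher and 26.8% lower). For goblet-like cells the counts were 14 lower and 3 higher of 28, and 13 lower and 1 higher of 20 (all genes, 19.7% higher and 20.8% lower). For immature cells they were 17 lower and 3 higher, and 16 lower and 2 higher (all genes, 34.7% higher and 33.6% lower). Mylk, the kinase that contracts the actin ring of the junction, was lower in Paneth-like cells (-1.52 ± 0.14, edgeR adjusted p = 9.60e-12), and Epcam, the partner of Cldn7, was lower in Paneth-like (-1.05 ± 0.11, adjusted p = 1.07e-10) and goblet-like cells (-0.67 ± 0.10, adjusted p = 2.79e-06). Along the axis 12 of 19 tested genes of the adherens list were higher in the upper bin, 1 lower and 6 did not pass, where 23.7% of all genes were higher and 24% lower, with a median of 0.28, beside -0.33 for the 8 members and 0.00 for all genes. Epcam was among the higher (0.43 ± 0.06, adjusted p = 3.91e-06), with Pkp4 (0.67 ± 0.09, adjusted p = 7.03e-07) and Pkp3 (0.49 ± 0.08, adjusted p = 1.16e-05), which encode plakophilins. Of 26 other tight junction genes 9 were higher, led by the polarity scaffold Mpp5 (1.07 ± 0.09, adjusted p = 3.23e-10), and 4 lower, led by Ybx3 (-0.95 ± 0.17, adjusted p = 3.00e-05). Between resection and sham, 0 genes of the other 3 lists passed edgeR's test in any of the 4 classes, nor in the tests of class and axis differences. The list medians between groups in enterocyte-like cells were -0.53 for the 8 members, -0.02 for the other tight junction genes, -0.15 for the adherens list and -0.02 for all genes.

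**Figure D4:**
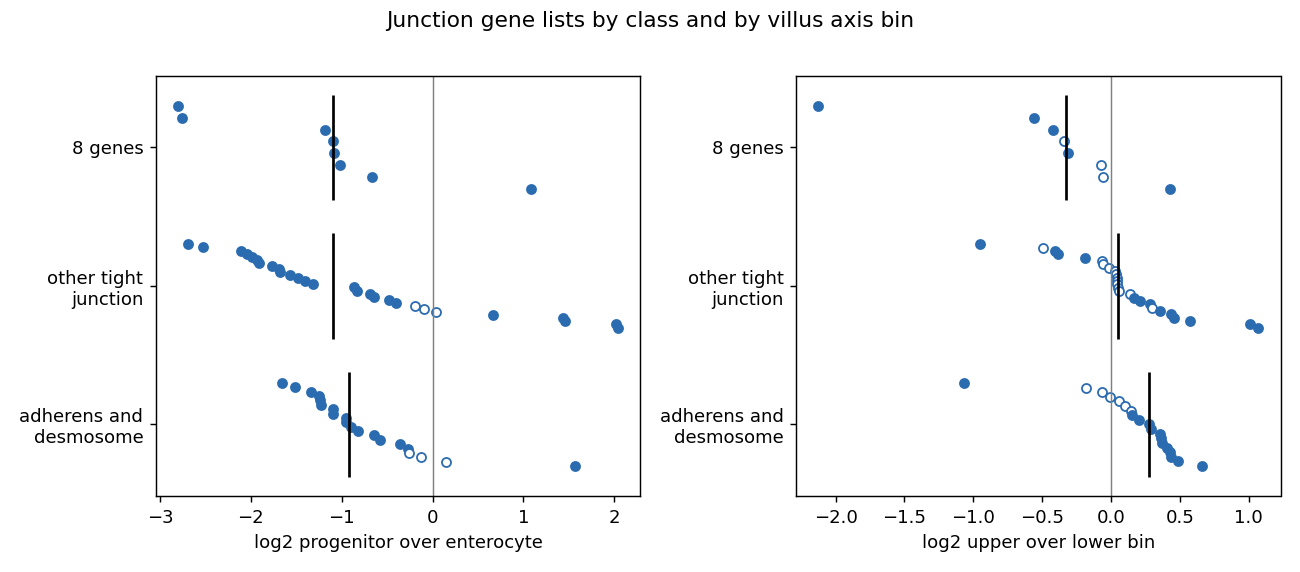
Log2 differences of single genes, left progenitor-like over enterocyte-like cells and right upper over lower bin, for the 8 genes, the other tight junction genes and the adherens junction and desmosome genes. Filled points passed an edgeR adjusted p of 0.05, open points did not, and bars mark list medians. The medians on the left lie at -1.09, -1.09 and -0.92, and on the right at -0.33, 0.05 and 0.28.

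Likeness across classes was measured by Pearson's r over the 25 library and class values of log2(CPM + 1), each centred on its library, among 5309 genes outside the junction lists. It is a description of 5 class profiles in shared libraries. The most alike were Atf4 (0.97) and Hdlbp (0.96) for Cldn4, Plac8 (0.97) and Reg3b (0.96) for Cldn23, and Plac8 (0.96) and Pccb (0.94) for Cldn3. Mkrn1 (0.97) was among the genes most like Cldn7, with Cryl1 and Mtm1 (0.93 each) most like Cldn15, and Kars (0.86) and Rabl6 (0.80) most like Cldn2. For Ocln they were Gadd45a (0.95) and Gskip (0.93), and for Tjp1 Arpc3 (0.91) and Ddah1 (0.90).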

How the data were processed

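The deposited matrices, 1 for each of 5 libraries, hold UMI counts as whole numbers that were not normalized. Per the labels, libraries were made with 10x v2 chemistry and matrices with Cell Ranger, whose version 2 carries a question mark. The submitters' processing notes name the builds mm10 and GRCm38; the annotation is not given in the sources used here. The 8 genes, the lists and the tests were chosen with earlier results of these data known, and the gene lists are described by counts and medians only.

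Of 19404 barcodes, 18955 passed limits of 500 genes or more and a mitochondrial share of 20% or less, and 720 scored as doublets (3.80%) were removed. Counts were log-scaled, reduced to 30 components of 2000 variable genes without the junction genes, and clustered (20 neighbours, Leiden resolution 1, leidenalg 0.10.2, no batch correction). Clusters took the class whose markers scored highest, scored where 3 markers reached 50 CPM. An immature name needed a lead of 0.1 over enterocyte, a rule set after seeing the data, and was otherwise enterocyte. A cluster with more markers of another class than of its own among its 10 leading genes stayed unnamed.

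Counts summed per library and class entered the quasi-likelihood test of edgeR 4.0.16 in R 4.3.3 (two-sided, after TMM scaling and filterByExpr) with Benjamini-Hochberg adjustment over all genes tested, threshold 0.05. Class and axis tests held the library as a block. The SE is the log2 fold change over the square root of F. The surgery test in enterocyte-like cells and the test of progenitor-like against enterocyte-like cells were tried on simulated counts. These had a fixed spread and no library effect. The other tests were not simulated, among them the axis tests and those of class or axis differences between surgery groups. DESeq2 1.42.0 was an alternative. The villus score used 6 tip and 9 base genes. Named list genes are up to 3 per list and direction with the lowest adjusted p. Where a symbol had several rows, the row with the lowest gene identifier was kept, which left out 65 rows. For likeness, the 2 genes with the highest r are named, except that 1 of those for Cldn7 is not reported here. Replicate numbers came from the labels, which state no pairing. Promoters are from RefSeq (GRCm38.p6).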

Additional observations from a re-analysis of the deposited data

Results flagged for a closer look

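Cldn23 differed between progenitor-like and enterocyte-like cells by less after resection than after sham surgery. The test of that difference gave 1.30 on the log2 scale (edgeR adjusted p = 0.0160).

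The fall of Cldn2 from the lowest to the highest bin of the villus axis differed between the groups, by -1.83 on the log2 scale (edgeR adjusted p = 0.00241), with all 5 libraries falling. For Cldn23 the same test gave -0.97 (edgeR adjusted p = 0.0107), with both resection libraries and sham 2 falling. The Cldn2 call was lost with tip genes alone and with coarser clusters. The Cldn23 call on the axis was lost, among other changes, without sham 1 or sham 3 and with base genes alone. All 3 results rest on 3 sham and 2 resection libraries.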

How the results depend on the processing

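With 3 against 2 libraries, and as few as 3 UMIs of a gene in a class, a missed threshold does not show equal levels. Counts below are of the 8 genes called.

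Of 1225 values of single genes under the alternatives, 1173 stayed on their side of the threshold, 44 of them with the opposite sign and uncalled both ways, 28 lost a call, 20 gained one and 4 called values reversed. With UMI totals alone (chosen after seeing the data), Cldn2 in Paneth-like cells became -0.93 and Tjp1 in immature cells 0.29, and goblet-like cells had 3 called. With tip genes alone, the villus axis gave 0.43 for Cldn4 and 0.01 for Tjp1 (0.015). The causes were not tested.

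For the difference of progenitor-like and enterocyte-like cells between groups, the count was 2 without a filter, 2 by DESeq2, 0 with Leiden resolution 0.5, 0 with names by the highest marker score (also chosen after seeing the data), 0 with UMI totals and 0 to 3 with 1 library left out; all genes called numbered 32, against 115, 64, 3, 2 and 10. For resection in enterocyte-like cells it was 2 without a filter (172 genes) and 2 by DESeq2 (58 genes). The axis count was 3 to 6 with 1 library left out. The count for the axis between groups was 1 with Leiden resolution 0.5, 1 with names by highest score, 1 with tip genes, 1 with base genes and 1 to 3 with 1 library left out. All genes called for it numbered 325, and 140 with Leiden resolution 0.5, 63 with tip genes and 213 without sham 1. Numbers of all genes under its other changes are not given here. UMI totals called 9374 genes in Paneth-like cells against 5320. With 1 library left out, 0 to 123 genes were called for the class difference between groups, and for resection 0 to 3 in enterocyte-like, 0 in immature, 0 to 2 in progenitor-like and 0 to 12 in Paneth-like cells, beside 0. Without a filter progenitor-like and Paneth-like cells had 14 each, and with the set of libraries as a term 3 and 7, and 1 in immature cells.

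With the replicate number as a block, 1 gene, Cldn4, was called in immature cells (128 genes in all) and 1, Cldn4, in Paneth-like cells (32), 0 in progenitor-like (76 genes) and 0 in enterocyte-like cells. With the set of libraries as a term, 0 of the 8 were called in any class. Same-numbered libraries had r of 0.53 and 0.17 and sham 3 with resection 2 had 0.45. With 2 resection libraries such deviations are mirror images and say little of pairing, which the labels do not state.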
